A study of Homo sapiens with 24 samples.

Results

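The genes described here are 45 human genes of the amino acid response, the part of the integrated stress response that runs through the transcription factor ATF4. They were taken by symbol from a deposited table of 26364 genes, and all 45 were found there. All 45 were among the 15757 genes that passed the filter on low counts and were tested. They fall into 13 regulators and effectors, 11 enzymes of amino acid and folate metabolism, 8 amino acid transporters, and a group of 13 made of 12 cytosolic aminoacyl-tRNA synthetases and the tRNA exporter XPOT.

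As background, kinases that sense empty tRNAs, misfolded protein or other stress phosphorylate the initiation factor eIF2. General translation then slows while the ATF4 mRNA is translated better. ATF4 protein pairs with C/EBP proteins on composite promoter elements and raises genes that make, import and charge amino acids. In epidermis the same cells must shift from division to the bulk synthesis of keratins and cornified envelope proteins.

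Libraries came from N/TERT-1 (nTERT-1 in the labels), an established line of immortalised human keratinocytes. The 4 genotypes were NT, KAT2A_KD, KAT2B_KD and KAT2AB_KD. NT served as the reference here, though the labels do not spell out the abbreviation, and the suffix KD is read as knockdown of the lysine acetyltransferase KAT2A, of its paralog KAT2B, or of both. Each genotype was sequenced at 3 stages, Subconfluent, Confluent and Differentiated (day 4 in the deposited sample table), with 2 libraries in each of the 12 groups. The deposited sample table numbers them 2 and 3, and they are called replicate 1 and replicate 2 here, in that order. Every sample shares the treatment label for keratinocyte differentiation, the Subconfluent ones included. The knockdown method and whether libraries of a group came from separate cultures are not given in the sources used here, so p-values measure the spread between libraries, which may be technical.

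Levels are CPM, the usual depth-scaled read counts, computed from library sizes scaled by the trimmed mean of M-values. They are not divided by gene length, so they compare samples and not genes. Library totals ran from 8010178 to 16054003 counts. KAT2A stood at 30.1 to 38.5 CPM in the NT libraries of the first 2 stages and at 3.03 to 5.06 CPM in all KAT2A_KD libraries. In KAT2AB_KD it ranged from 1.67 to 10.4 CPM. At Differentiated NT itself had 12.8 and 9.995 CPM, and there the KAT2A difference missed the threshold (adjusted p = 0.139 in KAT2A_KD and 0.144 in KAT2AB_KD). KAT2B was 44.8 and 40.4 CPM in NT Differentiated, 4.58 and 8.59 CPM in KAT2B_KD and 5.85 and 18.9 CPM in KAT2AB_KD. Its levels at the first 2 stages and its test results are not given here. The basal keratinocyte keratins KRT5 and KRT14 were at 5285 CPM or more in every library. Of 5 melanocyte markers TYR had no reads in any library, DCT reached at most 0.251 CPM and MLANA at most 0.849 CPM, and these 3 did not pass the filter on low counts. MITF lay between 0.673 and 11.7 CPM and fell with differentiation in KAT2A_KD (log2 fold change -1.58, adjusted p = 0.00613). The melanosome protein PMEL rose with differentiation in every genotype, in NT from 0.314 and 0.641 to 7.18 and 8.3 CPM (log2 fold change 3.98 ± 0.621 SE, edgeR adjusted p = 2.34e-05), and its part in the member changes was not tested. Of the fibroblast markers examined, 2 passed the filter on low counts. From Confluent to Differentiated 1 of the 2 was higher and 0 lower in each genotype at an unadjusted p under 0.05 (edgeR). Of all genes, 23.3% to 27.2% were higher at that threshold. The fibroblast collagen COL1A1 rose with differentiation to at most 51.1 CPM. At Differentiated, replicate 1 of KAT2A_KD and of KAT2AB_KD lay below replicate 2 for most members, and counts of calls and medians over all 45 that use these groups are given with and without it.

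Promoter sequences were examined for the element that ATF4 and C/EBP proteins bind together. The letters TGATGNAAN were searched on both strands of RefSeq promoters (GRCh38.p14, 250 bases before to 50 after each annotated start). Of the 45 genes, 37 matched an entry, and 8 did not: NUPR1, PSPH, SHMT2, ALDH1L2, GPT2, SLC7A11, YARS and LARS. The letters occurred in 16 of the 37 matched genes (43.2%), against 4.45% of 27305 genes with any promoter in that table. Counted by promoter, 16 of 60 held them (26.7%), against 3.61% of all 35116. By role they were found in 4 of 12 regulators, 1 of 7 enzymes, 4 of 7 transporters and 7 of 11 of the synthetases with XPOT. Among synthetase genes outside the set they occurred in 0 of 9 further cytosolic ones and in 1 of 14 mitochondrial ones, YARS2. They occurred in 3 of 11 genes from further amino acid stress and one-carbon metabolism (FGF21, BCAT1 and MTHFD1L), in 1 of 11 eIF2 kinases and partners (PPP1R15B) and in 1 of 18 genes of the unfolded protein response (HERPUD1). A match is a run of letters, not evidence of binding. The set was drawn up as genes of the ATF4 response, so a higher share than in all genes is not an independent result.

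The matches are shown because they let the members be read side by side. Each line gives 29 bases (fewer for SLC3A2, whose match lies at the end of its promoter window), 5′ to 3′ on the strand that carries the match, with the matched letters in capitals. The core TGATGCAAC recurs in regulators and synthetases alike, while ASNS and SLC7A1 carry TGATGAAAC.
ASNS (chr7:97872458-97872486, minus strand): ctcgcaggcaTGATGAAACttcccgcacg
SLC7A1 (chr13:29595663-29595691, minus strand): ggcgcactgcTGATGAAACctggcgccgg
GARS (chr7:30594834-30594862, minus strand): gctcggagcaTGATGAAATcgccgcgtaa
JDP2 (chr14:75427996-75428024, plus strand): tagccggggcTGATGCAACccgtcccgcc
CHAC1 (chr15:40953251-40953279, minus strand): ctggcaggagTGATGCAACggcaggggag
CEBPG (chr19:33374061-33374089, plus strand): gcgcggcgtcTGATGCAACctgccggcaa
AARS (chr16:70289676-70289704, plus strand): ctaacttggcTGATGCAACtgcgagaaaa
MARS (chr12:57488053-57488081, minus strand): aatccctcgcTGATGCAACcggaaccggc
NARS (chr18:57621804-57621832, minus strand): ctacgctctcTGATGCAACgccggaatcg
IARS (chr9:92293693-92293721, plus strand): cgcacggaggTGATGCAACgcgctgaaaa
CARS (chr11:3057408-3057436, plus strand): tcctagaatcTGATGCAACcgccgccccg
TARS (chr5:33440956-33440984, minus strand): ctggaccagcTGATGCAATcgaaaggcgc
SLC1A4 (chr2:64989381-64989409, minus strand): cggctggagaTGATGCAAAcgggagccgc
SLC1A5 (chr19:46784893-46784921, minus strand): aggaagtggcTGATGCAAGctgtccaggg
ATF3 (chr1:212565206-212565234, plus strand): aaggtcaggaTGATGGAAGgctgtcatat
SLC3A2 (chr11:62881725-62881748, minus strand): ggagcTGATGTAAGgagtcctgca
The first matched base stood 68 bases before the start in ASNS, 16 before it in JDP2, 210 before it in CHAC1 and 188 before it in AARS, counted along the gene. The start meant is that of the matching promoter, since ASNS had 2 promoters and JDP2 3, with the match in 1 of each. ATF3, CEBPG, GARS, TARS, CARS, SLC1A4, SLC1A5 and SLC3A2 likewise matched in 1 of several promoters.

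Some genes with a match follow with the 250 bases before the matching start, read 5′ to 3′ along the gene, match in capitals. They are ASNS, asparagine synthetase (chr7:97872409-97872658, minus strand), JDP2, a bZIP repressor (chr14:75427772-75428021, plus strand), and CHAC1, which degrades glutathione (chr15:40953221-40953470, plus strand). In CHAC1 the match is on the opposite strand, so its reverse complement appears here. MTHFD2 and TRIB3, which had calls against NT described below, held no match in their promoters.
ASNS: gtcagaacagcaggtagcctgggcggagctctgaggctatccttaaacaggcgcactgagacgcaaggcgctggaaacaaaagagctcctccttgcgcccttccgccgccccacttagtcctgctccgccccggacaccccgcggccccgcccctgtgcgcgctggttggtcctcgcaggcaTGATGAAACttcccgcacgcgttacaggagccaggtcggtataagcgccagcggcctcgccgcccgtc
JDP2: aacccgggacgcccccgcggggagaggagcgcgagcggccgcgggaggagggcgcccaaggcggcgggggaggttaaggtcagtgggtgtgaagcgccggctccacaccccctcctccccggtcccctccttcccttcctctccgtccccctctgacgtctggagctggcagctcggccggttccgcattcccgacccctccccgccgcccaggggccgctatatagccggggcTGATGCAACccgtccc
CHAC1: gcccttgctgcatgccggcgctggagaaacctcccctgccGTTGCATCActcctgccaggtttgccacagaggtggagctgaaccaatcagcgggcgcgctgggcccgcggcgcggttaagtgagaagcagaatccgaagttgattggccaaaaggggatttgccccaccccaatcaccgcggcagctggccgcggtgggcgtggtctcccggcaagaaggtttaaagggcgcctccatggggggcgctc

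**Figure D1:**
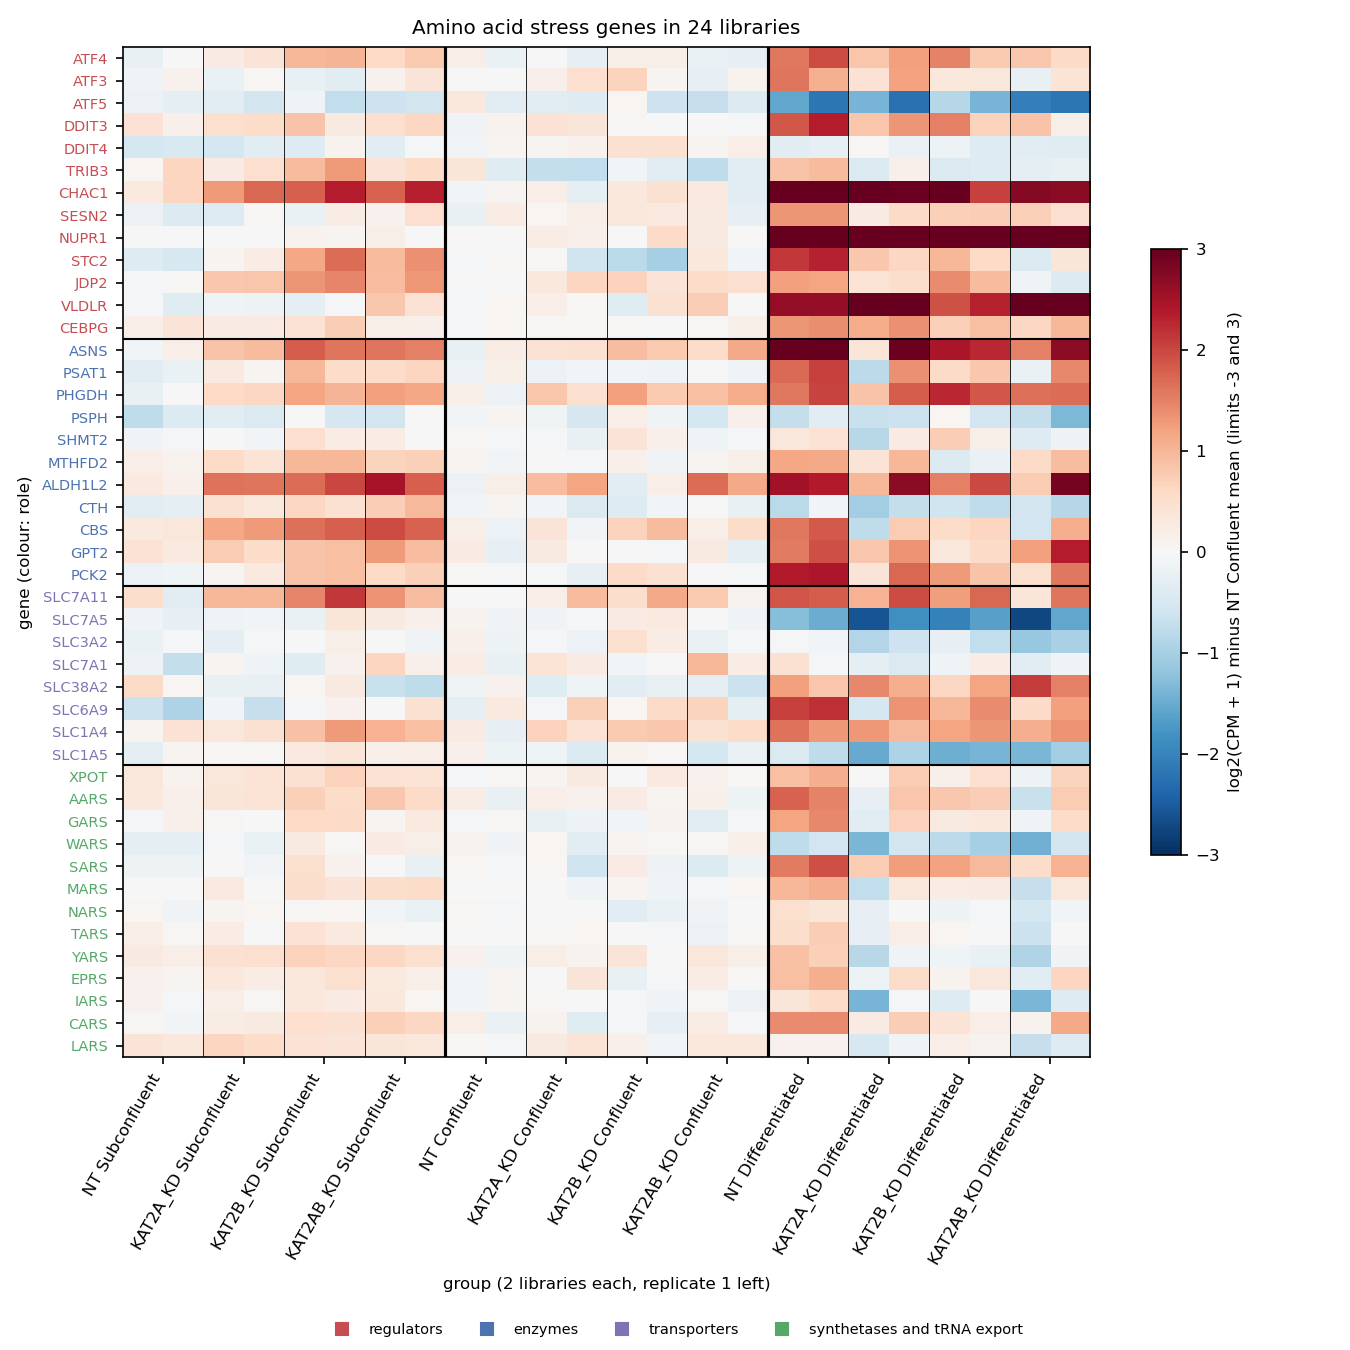
Level of the 45 genes (rows, label colour by role) in the 24 libraries (columns, 2 per group), as log2(CPM + 1) minus the mean of the 2 NT Confluent libraries, with colours limited at -3 and 3. NT Differentiated is the group with the highest mean for 27 of the 45 genes, and the share of all genes was not computed.

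The first comparison asks how the genes change when NT cells differentiate. In NT, 33 of the 45 rose and 4 fell from Confluent to Differentiated (edgeR adjusted p under 0.05), against 24.3% and 26.1% of all genes tested. Their median log2 fold change was 1.37, with -0.01 for all genes. The median over the members is the same with NUPR1, which had no reads in NT Confluent, set at its lower bound. In bulk RNA, a change in the number of cells of a kind and in RNA per cell cannot be told apart.

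Among the regulators 11 of 13 rose and ATF5 fell. ATF4 mRNA was 91.5 and 69.9 CPM in the NT Confluent libraries and 242 and 316 CPM in the Differentiated ones, so the groups did not overlap, and it rose 3.46-fold (log2 fold change 1.79 ± 0.231 SE, edgeR adjusted p = 2.51e-06). DDIT3, which encodes the stress factor CHOP, went from 3.38 and 4.06 CPM to 16.1 and 23.2 CPM (log2 fold change 2.40 ± 0.345 SE, edgeR adjusted p = 9.66e-06). CHAC1 was low at Confluent, with 0.55 and 0.712 CPM from 7 and 10 reads, and reached 20.2 and 31.4 CPM. That is a log2 fold change of 5.33 ± 0.537 SE, edgeR adjusted p = 1.05e-07. NUPR1, a small stress-induced nuclear protein, had 0 reads in both NT Confluent libraries and 25.5 and 23.7 CPM after differentiation, at least 219.7-fold higher against a floor of 3 reads over the group. For each of these 4 genes both NT Differentiated libraries lay above both Confluent ones, as for 36 of the 45 members and 37.9% of all genes.

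STC2, a secreted glycoprotein, stood at 0.942 and 1.07 CPM in NT Confluent and 7.71 and 8.96 CPM in NT Differentiated (log2 fold change 3.04 ± 0.562 SE, edgeR adjusted p = 1.51e-04). JDP2 went from 2.59 and 2.56 to 7.45 and 7.17 CPM (log2 fold change 1.50 ± 0.299 SE, edgeR adjusted p = 3.27e-04). The pseudokinase TRIB3, a feedback inhibitor of ATF4, went from 84.4 and 51.4 to 121 and 128 CPM (log2 fold change 0.88 ± 0.25 SE, edgeR adjusted p = 0.00654). The lipoprotein receptor VLDLR rose by 4.52, ATF3 by 1.72, the ATF4 partner CEBPG by 1.39 and the leucine sensor SESN2 by 1.37 on the log2 scale. ATF5, a close relative of ATF4, moved the other way, from 20.8 and 13 CPM to 4.91 and 2.92 CPM (log2 fold change -2.10 ± 0.369 SE, edgeR adjusted p = 9.07e-05). The mTORC1 inhibitor DDIT4 did not pass (-0.28, adjusted p = 0.222).

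Of the enzymes 8 of 11 rose and none fell, with a median of 1.85. ASNS, which makes asparagine, was 15.6 and 21.4 CPM at Confluent and 170.2 and 254 CPM at Differentiated in NT, a rise of 11.5-fold (log2 fold change 3.52 ± 0.54 SE, edgeR adjusted p = 2.04e-05). PHGDH and PSAT1 catalyse the first steps of serine synthesis. PHGDH went from 73.6 and 57.6 to 195 and 267 CPM (log2 fold change 1.82 ± 0.266 SE), and PSAT1 from 46.9 and 59.7 to 173 and 221 CPM (1.89 ± 0.478 SE). PSPH, the phosphatase that completes the pathway, did not pass (-0.53, adjusted p = 0.132).

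The mitochondrial folate enzymes were split. MTHFD2 went from 60.8 and 54.5 to 129.6 and 129 CPM (log2 fold change 1.16 ± 0.192 SE, edgeR adjusted p = 4.65e-05) and ALDH1L2 from 0.942 and 1.49 to 11.7 and 10.4 CPM (3.16 ± 0.677 SE). SHMT2, which feeds serine into that pathway, had 159 and 152 and then 197 and 210.2 CPM and did not pass (adjusted p = 0.212). PCK2, the mitochondrial phosphoenolpyruvate carboxykinase, went from 24 and 22.6 to 126 and 130.3 CPM (log2 fold change 2.46 ± 0.34 SE, edgeR adjusted p = 5.87e-06). GPT2, an alanine aminotransferase, rose by 1.85 and CBS, the first enzyme of transsulfuration, by 1.88 on the log2 scale. CTH, the next enzyme after CBS, was at most 1.21 CPM in these 4 libraries and did not pass. A pseudogene listed beside MTHFD2 held 11.1 to 30.9 CPM across libraries, and since the handling of reads with several matches is not stated in the sources, the counts of this pair are uncertain.

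The transporters were mixed, with 4 that rose and 2 that fell. SLC6A9, a glycine importer, went from 3.61 and 5.98 CPM to 22.4 and 25 CPM (log2 fold change 2.30 ± 0.525 SE, edgeR adjusted p = 0.00115). The cystine importer SLC7A11 rose by 1.94, the neutral amino acid transporters SLC1A4 by 1.51 and SLC38A2 by 1.04. SLC7A5, the light chain of the large neutral amino acid exchanger, had 1277 and 1113 CPM at Confluent and 489 and 422 CPM at Differentiated. It fell by 2.62-fold (log2 fold change -1.39 ± 0.307 SE, edgeR adjusted p = 8.55e-04). Its heavy chain SLC3A2 did not pass (-0.07, adjusted p = 0.786), nor did the cationic amino acid transporter SLC7A1 (0.22, adjusted p = 0.538). SLC1A5, a glutamine carrier, had 194 and 156 CPM and then 128 and 103 CPM (log2 fold change -0.60 ± 0.214 SE, edgeR adjusted p = 0.0244). A pseudogene of SLC7A5 carried 15.8 to 245 CPM, so those counts are uncertain in the same way. Antisense genes listed beside VLDLR and SLC7A11 reached at most 0.935 and 2.66 CPM, and with no strand setting stated their reads cannot be told apart from those of their partners.

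Synthetases attach amino acids to their tRNAs, and 9 of the 12 rose together with XPOT, while WARS fell. SARS, which charges serine tRNA, went from 141 and 129 to 402 and 515 CPM (log2 fold change 1.76 ± 0.252 SE, edgeR adjusted p = 9.05e-06). AARS, for alanine, went from 85.2 and 61.3 to 251 and 206 CPM (1.64 ± 0.347 SE), CARS, for cysteine, from 48.4 and 36.4 to 115 and 114 CPM (1.43 ± 0.263 SE), and GARS, for glycine, from 129.8 and 134 to 301 and 359 CPM (1.32 ± 0.26 SE). XPOT, MARS, EPRS, YARS, TARS and NARS rose by 1.02, 1.05, 0.999, 0.80, 0.64 and 0.43 on the log2 scale. WARS, for tryptophan, went from 113 and 97.7 to 61.1 and 70.4 CPM (log2 fold change -0.68 ± 0.258 SE, edgeR adjusted p = 0.035). IARS and LARS, for the branched-chain amino acids isoleucine and leucine, did not pass (0.45, adjusted p = 0.252 and 0.13, adjusted p = 0.551).

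Cytosolic synthetase genes outside the set mostly went the opposite way. Of 11 such genes and complex subunits, 1 rose and 8 fell in NT, with a median of -1.14 against 0.999 for the 12 synthetases of the set with XPOT. FARSB, a phenylalanine synthetase subunit, had a log2 fold change of -2.09 ± 0.2 SE, and QARS, for glutamine, named after its value was seen, was the gene that rose (0.69). Of 17 mitochondrial synthetases 0 rose and 12 fell (median -0.94). Among 12 eIF2 kinases and partners 2 rose and 6 fell, and among 18 chaperones and regulators of the unfolded protein response 6 rose and 8 fell. Of 13 tested genes from further amino acid stress and one-carbon metabolism 3 rose and 7 fell, the latter led by the DNA synthesis enzyme TYMS (-3.73 ± 0.242 SE). The difference between these lists was not tested. Members and lists were chosen with earlier results of these data known, so the contrast is not an independent result.

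Of the 37 calls in NT, 31 held in each of the 4 fits that left out 1 library. The other 6 were lost at least once, with a highest adjusted p of 0.141 without NT Confluent replicate 2 for NARS, 0.19 without NT Differentiated replicate 1 for WARS, 0.0675 without NT Differentiated replicate 2 for TARS, 0.212 without NT Differentiated replicate 2 for SLC1A5, 0.128 without NT Confluent replicate 2 for TRIB3 and 0.0816 without NT Confluent replicate 2 for YARS.

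**Figure D2:**
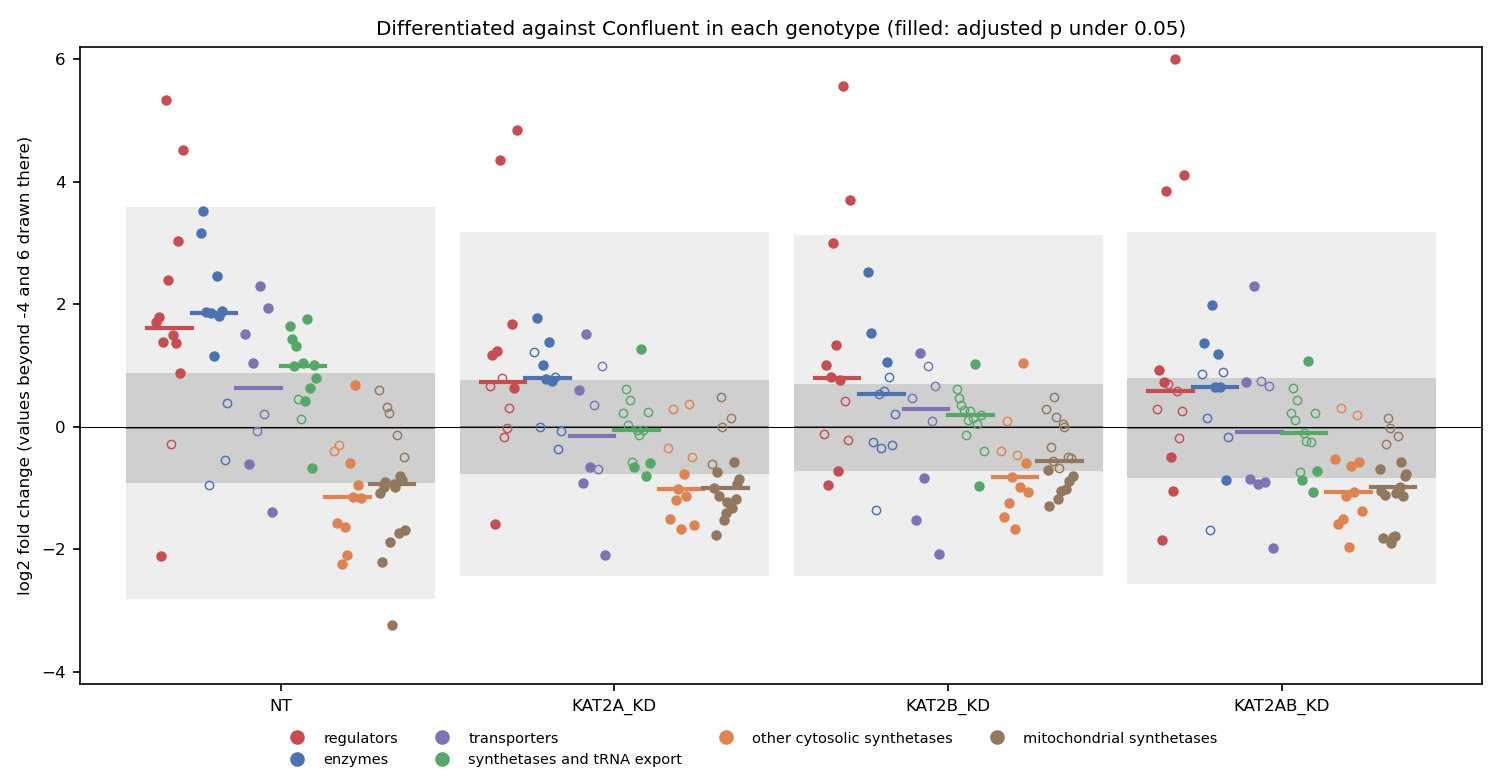
Log2 fold change from Confluent to Differentiated in each genotype, 1 point per gene, for the 4 roles and 2 lists of other synthetases (filled points, adjusted p under 0.05). Thick lines are list medians over the genes drawn, grey boxes the middle 50% and 90% of all genes tested, and genes with 3 or fewer reads in a group are left out. In NT the synthetases of the set with XPOT have a median of 0.999 and the mitochondrial ones -0.94. Members and lists were chosen with earlier results of these data known.

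In the knockdowns fewer of the 45 were called higher on differentiation than the 33 of NT. KAT2A_KD had 15 higher and 8 lower, against 21.4% and 21.7% of all genes, with a median of 0.36. KAT2B_KD had 13 higher and 6 lower (19.3% and 20.3% of all genes, median 0.36). KAT2AB_KD had 13 higher and 11 lower (22.6% and 23.6%, median 0.26). The direction of the median depended on 1 library in 2 of the knockdowns. In KAT2A_KD it was 0.68, with 19 higher and 2 lower, without Differentiated replicate 1, and -0.07, with 8 higher and 10 lower, without replicate 2. In KAT2AB_KD it was 0.61, with 18 higher and 7 lower, without Differentiated replicate 1, and -0.25, with 9 higher and 10 lower, without replicate 2.

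Of the 13 regulators 7 were called higher and 1 lower in KAT2A_KD, 8 and 2 in KAT2B_KD, and 5 and 3 in KAT2AB_KD. ATF3 and SESN2, which had risen in NT, passed in no knockdown, with log2 fold changes of 0.67, -0.11 and 0.29 for ATF3 and 0.30, 0.42 and 0.58 for SESN2, in the same order. ATF4 rose by 1.17 in KAT2A_KD, 1.01 in KAT2B_KD and 0.93 in KAT2AB_KD on the log2 scale. CHAC1 rose by 4.36, 3.002 and 3.85, and CEBPG by 1.24, 0.82 and 0.73, in the same order. NUPR1 was 0.16 and 0.108 CPM at Confluent and 21.4 and 12.9 CPM at Differentiated in KAT2A_KD, a ratio of 126 with a 95% counting interval of 42.8 to 613. It went from 0 and 0.482 to 12.9 and 8.29 CPM in KAT2B_KD (log2 fold change 5.56, adjusted p = 1.19e-05) and from 0.212 and 0 to 9.56 and 8.06 CPM in KAT2AB_KD (6.11, adjusted p = 4.74e-06). VLDLR rose by 4.85, 3.70 and 4.11, and ATF5 had -1.59, -0.94 and -1.85, lower in all 3. TRIB3 passed in KAT2A_KD (0.63), STC2 in KAT2A_KD (1.69) and KAT2B_KD (59 reads against 2, a ratio of 29.2 with a 95% counting interval of 7.74 to 247), DDIT3 in KAT2B_KD (1.34), and DDIT4 in KAT2B_KD (-0.73) and KAT2AB_KD (-0.49). JDP2 is the regulator whose direction split: it rose in KAT2B_KD (0.76 ± 0.289 SE, edgeR adjusted p = 0.0421) and fell in KAT2AB_KD, from 4.23 and 4.03 to 2.31 and 1.67 CPM (-1.05 ± 0.307 SE, edgeR adjusted p = 0.00821). Both calls depended on single libraries, with a highest adjusted p of 0.273 without KAT2B_KD Differentiated replicate 1 for the first and 0.0894 without KAT2AB_KD Differentiated replicate 2 for the latter.

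Among the enzymes ASNS and PHGDH were called higher in all 3 knockdowns. ASNS rose by 1.77, 1.54 and 1.36 in KAT2A_KD, KAT2B_KD and KAT2AB_KD, and PHGDH by 0.75, 1.06 and 0.66. The rise of ASNS in KAT2A_KD rested on replicate 2: without that library the log2 fold change was -0.0445 (adjusted p = 0.947). Single libraries also ended the ASNS call in KAT2B_KD, held in 1 of 4 fits with a highest adjusted p of 0.0934 without KAT2B_KD Confluent replicate 2, and in KAT2AB_KD, held in 2 of 4 with 0.387 without KAT2AB_KD Differentiated replicate 2. PHGDH was called in every such fit in KAT2B_KD, in 2 of 4 in KAT2A_KD (highest adjusted p 0.561 without KAT2A_KD Differentiated replicate 2) and in none of 4 in KAT2AB_KD (0.188 without KAT2AB_KD Confluent replicate 1). PCK2 rose in KAT2A_KD (1.38) and KAT2AB_KD (1.20), as did MTHFD2 (0.78 and 0.65) and GPT2 (1.02 and 1.99). In KAT2B_KD, MTHFD2 had 64.1 and 53.9 CPM at Confluent and 43 and 49.8 CPM at Differentiated and did not pass (-0.35, adjusted p = 0.162). PSAT1 and CBS, which had risen in NT, passed in no knockdown. PSPH fell in KAT2AB_KD (-0.87), ALDH1L2 rose in KAT2B_KD (2.53), and CTH fell in KAT2A_KD on 3 reads against 17, a ratio of 0.165 with a 95% counting interval of 0.0309 to 0.569.

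Of the synthetases with XPOT only SARS was called higher in any knockdown, in all 3, by 1.27, 1.03 and 1.08. Fitted changes were above 0 for 6, 10 and 6 of the 13 in KAT2A_KD, KAT2B_KD and KAT2AB_KD. The shares of all genes were 49.6%, 49.7% and 49.2%. WARS fell in all 3, with -0.80, -0.96 and -1.06 in the same order. YARS and LARS fell in KAT2A_KD (-0.59 and -0.65) and in KAT2AB_KD (-0.71 and -0.87). The median of the 13 was -0.04 in KAT2A_KD, 0.19 in KAT2B_KD and -0.10 in KAT2AB_KD, against 0.999 in NT. SLC7A5 fell, with -2.09, -2.08 and -1.97 in the same order, as did SLC1A5, with -0.92, -1.52 and -0.85. SLC38A2 rose by 1.52, 1.20 and 2.31. SLC1A4 had log2 fold changes of 0.60 in KAT2A_KD and 0.73 in KAT2AB_KD, and SLC7A1 -0.90 in KAT2AB_KD, all past the threshold. SLC3A2, which did not pass in NT, had log2 fold changes of -0.65, -0.84 and -0.93 in KAT2A_KD, KAT2B_KD and KAT2AB_KD and was lower in each. The calls that held in every fit leaving out 1 library were 9 of 23 in KAT2A_KD, 11 of 19 in KAT2B_KD and 13 of 24 in KAT2AB_KD.

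Whether the change itself differed from that in NT was tested as a difference of differences. In KAT2A_KD no member passed (edgeR, 0.616% of all genes, and 22 of 45 members had an unadjusted p under 0.05, against 9.51% of all genes). DESeq2 called 2 there. In KAT2B_KD 1 passed, MTHFD2, by -1.51 ± 0.27 SE, edgeR adjusted p = 0.0181, against 0.552% of all genes higher and 0.336% lower. In KAT2AB_KD 4 passed, all lower, against 0.723% of all genes higher and 0.609% lower: JDP2 (-2.55 ± 0.429 SE, edgeR adjusted p = 0.00373), STC2 (-3.23 ± 0.8 SE, edgeR adjusted p = 0.0497), YARS (-1.52 ± 0.335 SE, edgeR adjusted p = 0.0264) and LARS (-0.99 ± 0.235 SE, edgeR adjusted p = 0.0385).

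Fitted differences were below 0 for 40, 41 and 42 of the 45 members in KAT2A_KD, KAT2B_KD and KAT2AB_KD, against 48.4%, 47.4% and 50.6% of all genes. The 3 sets of values share the NT libraries. All 13 of the synthetases with XPOT were below 0 in each of the 3. Without Differentiated replicate 2 of KAT2A_KD 9 members were called lower, and without its replicate 1 none, with medians of -1.15 and -0.57. Without Differentiated replicate 2 of KAT2AB_KD 12 were called lower and 1 higher, and without its replicate 1 only 1 lower, with medians of -1.24 and -0.72. JDP2 kept its call in all 8 fits that left out 1 library, with a highest adjusted p of 0.0214, but was not called with only the compared groups in the fit (adjusted p = 0.0719). The others did not hold in all 8: the highest adjusted p was 0.0945 without NT Confluent replicate 2 for MTHFD2, 0.23 without KAT2AB_KD Confluent replicate 1 for STC2, 0.14 without NT Confluent replicate 2 for YARS and 0.161 without KAT2AB_KD Differentiated replicate 1 for LARS.

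From Subconfluent to Confluent little passed the test. In NT no member was called (edgeR, 0.901% of all genes, 2 members at an unadjusted p under 0.05 against 11.6% of all genes, and the same count of 0 from DESeq2). In KAT2A_KD again none was called (0.235% of all genes, 5 members unadjusted against 6.24%), while DESeq2 called 2. In KAT2B_KD 4 fell, against 1.09% of all genes higher and 0.520% lower. TRIB3 went from 127 and 162 to 62.1 and 52.7 CPM (log2 fold change -1.33 ± 0.252 SE, edgeR adjusted p = 0.0079), MTHFD2 from 116 and 115 to 64.1 and 53.9 CPM (-0.97 ± 0.191 SE) and CHAC1 from 4.64 and 7.32 to 1.04 and 1.25 CPM (-2.39 ± 0.502 SE). STC2 went from 3.5 and 5.36 CPM to 2 reads in both Confluent libraries together. Its ratio was 0.0186 with a 95% counting interval of 0.00223 to 0.0687.

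In KAT2AB_KD CHAC1 fell from 4.51 and 7.15 to 1 and 0.278 CPM (log2 fold change -3.10 ± 0.513 SE, edgeR adjusted p = 0.0046), against 0.343% of all genes higher and 0.267% lower. STC2 in KAT2B_KD was the call that held in every fit leaving out 1 library. The highest adjusted p was 0.114 without KAT2B_KD Confluent replicate 2 for TRIB3, 0.152 without KAT2B_KD Confluent replicate 2 for MTHFD2, 0.206 without KAT2B_KD Confluent replicate 1 for CHAC1 in KAT2B_KD and 0.0927 without KAT2AB_KD Confluent replicate 2 for CHAC1 in KAT2AB_KD. Fitted changes were below 0 for 34 of 45 members in KAT2B_KD and 37 in KAT2AB_KD, against 49.5% and 46.8% of all genes.

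The next comparisons set each knockdown beside NT at the same stage. At Subconfluent the members tended to sit higher in the knockdowns, and few passed. In KAT2A_KD none was called (edgeR, 0.343% of all genes, 7 members at an unadjusted p under 0.05 against 5.69%, and 0 from DESeq2). In KAT2B_KD 2 were higher and none lower, against 0.0190% and 0.0698% of all genes. In KAT2AB_KD 5 were higher and 1 lower, against 1.86% and 0.838%. Among 44 members, leaving out NUPR1 with its 3 or fewer reads in each group, 38, 41 and 38 were fitted above NT in KAT2A_KD, KAT2B_KD and KAT2AB_KD (medians 0.19, 0.46 and 0.49), against 47.4%, 47.1% and 48.8% of all genes.

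STC2 had 0.529 and 0.429 CPM in NT Subconfluent, 1.11 and 1.34 CPM in KAT2A_KD, 3.5 and 5.36 CPM in KAT2B_KD and 2.85 and 4.2 CPM in KAT2AB_KD. All knockdown libraries lay above both NT libraries, and the difference passed in KAT2B_KD (3.18 ± 0.609 SE, edgeR adjusted p = 0.0474) and in KAT2AB_KD (2.85 ± 0.609 SE, edgeR adjusted p = 0.0121). JDP2 had 2.44 and 2.66 CPM in NT, 5.26 and 5.38 CPM in KAT2A_KD, 7.91 and 8.88 CPM in KAT2B_KD and 5.77 and 7.78 CPM in KAT2AB_KD. It was again higher in KAT2B_KD (1.72 ± 0.297 SE, edgeR adjusted p = 0.0215) and KAT2AB_KD (1.41 ± 0.297 SE, edgeR adjusted p = 0.0113) and not called in KAT2A_KD (1.06, adjusted p = 0.21). ATF4 itself had 68.1 and 81 CPM in NT, 161 and 163 CPM in KAT2B_KD and 122 and 138 CPM in KAT2AB_KD, with adjusted p = 0.0636 and 0.0648.

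In KAT2AB_KD Subconfluent, PHGDH had 154 and 147 CPM against 55.2 and 65.3 CPM in NT (log2 fold change 1.32 ± 0.263 SE, edgeR adjusted p = 0.0073). ALDH1L2 had 11.2 and 6.65 CPM against 1.72 and 1.46 CPM (2.48 ± 0.652 SE, edgeR adjusted p = 0.0461), and CHAC1 4.51 and 7.15 CPM against 0.991 and 1.55 CPM (2.21 ± 0.488 SE, edgeR adjusted p = 0.0156). SLC38A2, an importer of small neutral amino acids, was lower, at 153 and 142 CPM against 365 and 252 CPM (-1.06 ± 0.253 SE, edgeR adjusted p = 0.0259). All 11 enzymes were fitted above NT in each knockdown, with medians of 0.45, 1.08 and 0.88 in KAT2A_KD, KAT2B_KD and KAT2AB_KD, which share the NT libraries. The synthetases with XPOT had medians of 0.15, 0.39 and 0.14, and none was called. None of the Subconfluent calls held in every fit leaving out 1 library: KAT2B_KD had 0 calls in each, and KAT2AB_KD had 0 without NT Subconfluent replicate 1, 1 without NT Subconfluent replicate 2, 3 without KAT2AB_KD Subconfluent replicate 1 and 1 without KAT2AB_KD Subconfluent replicate 2.

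At Confluent no member was called in KAT2A_KD (edgeR, 0.647% of all genes, 5 members at an unadjusted p under 0.05 against 7.75%, and 0 from DESeq2) or in KAT2B_KD (0.463% of all genes, 7 members unadjusted against 6.83%, and 2 from DESeq2). In KAT2AB_KD PHGDH was higher, with 123 and 141 CPM against 73.6 and 57.6 CPM in NT (log2 fold change 1.01 ± 0.261 SE, edgeR adjusted p = 0.0456), against 1.39% of all genes higher and 0.888% lower. It was not called in any of the 4 fits that left out 1 library, where the highest adjusted p was 0.349 without NT Confluent replicate 2.

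At Differentiated the members sat lower in the knockdowns. KAT2A_KD had 2 lower calls, against 0.298% of all genes, KAT2B_KD had 9, against 3.18%, and KAT2AB_KD had 16, against 1.17%. No member was called higher in any of them (0.920%, 1.67% and 1.57% of all genes). Medians were -0.69, -0.67 and -0.76, with 41, 39 and 42 of 45 members fitted below NT, against 48.8%, 47.9% and 49.6% of all genes. At an unadjusted p under 0.05, 31, 26 and 31 members were lower, against 5.45%, 9.92% and 6.82% of all genes. The 3 comparisons share both NT Differentiated libraries. With only the compared groups in the fit, 3 members were called in KAT2AB_KD in place of 16. Of the 2, 9 and 16 calls, 0, 2 and 1 held in every fit that left out 1 library, and the counts without each library follow the genes. The differentiation keratin KRT1 had 11819 and 10059.7 CPM in NT Differentiated, 5842 and 4182 CPM in KAT2A_KD, 10600.3 and 6312 CPM in KAT2B_KD and 3735 and 2248 CPM in KAT2AB_KD, and it was lower in KAT2AB_KD (-1.87 ± 0.295 SE, edgeR adjusted p = 0.00169). Of 8 keratinocyte markers, KRT1 included, 1, 1 and 0 were higher at an unadjusted p under 0.05 (edgeR) in KAT2A_KD, KAT2B_KD and KAT2AB_KD. That compares with 7.64%, 8.56% and 8.95% of all genes. Lower at that threshold were 2, 2 and 2 of the 8, with the shares of all genes as given above. The part of these markers in the member differences was not tested.

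Among the regulators at Differentiated, ATF4 had 242 and 316 CPM in NT, 142 and 189 CPM in KAT2A_KD, 227 and 138 CPM in KAT2B_KD and 140.2 and 120.1 CPM in KAT2AB_KD. Every knockdown library lay below both NT libraries, and the difference passed in KAT2AB_KD (-1.10 ± 0.226 SE, edgeR adjusted p = 0.0144) but not in KAT2A_KD (adjusted p = 0.116) or KAT2B_KD (0.13). TRIB3 had 121 and 128 CPM in NT, 48.9 and 73.7 CPM in KAT2A_KD, 48.7 and 49.8 CPM in KAT2B_KD and 53.2 and 56.1 CPM in KAT2AB_KD. It was lower in KAT2B_KD (-1.34 ± 0.253 SE, edgeR adjusted p = 0.00366) and KAT2AB_KD (-1.19 ± 0.252 SE, edgeR adjusted p = 0.0159), and in KAT2A_KD the adjusted p was 0.0502. DDIT3 had 16.1 and 23.2 CPM in NT and 7.5 and 4.34 CPM in KAT2AB_KD (-1.73 ± 0.334 SE, edgeR adjusted p = 0.00954). CHAC1 was lower in KAT2B_KD, at 12.7 and 5.75 CPM (-1.49 ± 0.414 SE, edgeR adjusted p = 0.0425), and had 9.97 and 9.58 CPM in KAT2AB_KD (adjusted p = 0.0789).

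JDP2 and STC2, higher in KAT2AB_KD at Subconfluent, were lower there at Differentiated. JDP2 had 7.45 and 7.17 CPM in NT Differentiated, 3.77 and 4.13 CPM in KAT2A_KD, 8.6 and 5.9 CPM in KAT2B_KD and 2.31 and 1.67 CPM in KAT2AB_KD. KAT2AB_KD was lowest and did not overlap any other genotype, with a log2 fold change against NT of -1.87 ± 0.308 SE, edgeR adjusted p = 0.00243, while KAT2B_KD straddled NT (-0.01, adjusted p = 0.992). STC2 had 7.71 and 8.96 CPM in NT and 0.494 and 1.6 CPM in KAT2AB_KD (-2.97 ± 0.561 SE, edgeR adjusted p = 0.00829). It had 2.54 and 2.07 CPM in KAT2A_KD and 2.99 and 2.02 CPM in KAT2B_KD, neither of which passed.

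The enzymes gave 3 lower calls in KAT2B_KD and 1 in KAT2AB_KD. MTHFD2 had 129.6 and 129 CPM in NT Differentiated, 77.2 and 116 CPM in KAT2A_KD, 43 and 49.8 CPM in KAT2B_KD and 85.7 and 111 CPM in KAT2AB_KD. Only the KAT2B_KD difference passed (-1.47 ± 0.194 SE, edgeR adjusted p = 2.01e-04), and KAT2A_KD was higher than KAT2B_KD there (1.06 ± 0.192 SE, edgeR adjusted p = 0.00451). GPT2 was lower in KAT2B_KD, at 11 and 13.2 against 27.2 and 35.4 CPM (-1.36 ± 0.318 SE, edgeR adjusted p = 0.0153), and had 21.4 and 48 CPM in KAT2AB_KD. PCK2 had 126 and 130.3 CPM in NT, 58.2 and 42.9 CPM in KAT2B_KD (-1.35 ± 0.326 SE, edgeR adjusted p = 0.0195) and 32.8 and 71.2 CPM in KAT2AB_KD (-1.30 ± 0.325 SE, edgeR adjusted p = 0.0373). In KAT2A_KD, at 30.7 and 78.6 CPM, it did not pass (adjusted p = 0.0694). PHGDH, higher in KAT2AB_KD at the first 2 stages, had 205 and 211 CPM against 195 and 267 CPM in NT at Differentiated (-0.15, adjusted p = 0.851).

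Transporters gave 1 call in each of 2 knockdowns: SLC1A5 was lower in KAT2B_KD, at 62.1 and 65.9 against 128 and 103 CPM (-0.85 ± 0.216 SE, edgeR adjusted p = 0.0275), and SLC3A2 in KAT2AB_KD, at 212 and 238 against 453 and 443 CPM (-0.99 ± 0.203 SE, edgeR adjusted p = 0.0142). SLC38A2, lower in KAT2AB_KD at Subconfluent, had 1055 and 699 CPM at Differentiated against 572 and 437 CPM in NT, with no overlap and an adjusted p of 0.103.

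Synthetases made up 9 of the 16 KAT2AB_KD calls, and the 5 in the single knockdowns were GARS and YARS in both and CARS in KAT2B_KD. YARS, which charges tyrosine, had 134 and 121 CPM in NT, 40.8 and 67.1 CPM in KAT2A_KD, 67.1 and 62.1 CPM in KAT2B_KD and 38.7 and 67.7 CPM in KAT2AB_KD. Every knockdown library lay below NT, and the log2 fold changes were -1.24 ± 0.239 SE, edgeR adjusted p = 0.0146 in KAT2A_KD, -0.98 ± 0.238 SE, edgeR adjusted p = 0.0194 in KAT2B_KD and -1.26 ± 0.239 SE, edgeR adjusted p = 0.00854 in KAT2AB_KD. GARS had 301 and 359 CPM in NT, 104 and 213 CPM in KAT2A_KD, 159 and 165 CPM in KAT2B_KD and 123 and 193 CPM in KAT2AB_KD, with log2 fold changes of -1.06, -1.03 and -1.07. CARS was lower in KAT2B_KD (-1.13 ± 0.261 SE, edgeR adjusted p = 0.0144).

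In KAT2AB_KD, AARS (-1.43), IARS (-1.26), MARS (-1.13), SARS (-0.95), TARS (-0.94), NARS (-0.72) and LARS (-0.67) were also lower, as log2 fold changes with edgeR adjusted p from 0.0164 to 0.044. Both knockdown libraries lay below both NT libraries for 12 of the 13 genes in KAT2A_KD, KAT2B_KD and KAT2AB_KD, against 22.1%, 22.7% and 19.7% of all genes. The 11 other cytosolic synthetase genes gave no call in any of the 3, with medians of 0.02, 0.29 and -0.11. Of the 17 mitochondrial ones 3 were higher in KAT2B_KD, led by MARS2 (1.88 ± 0.351 SE), and none was called in KAT2A_KD or KAT2AB_KD. The lists were chosen with earlier results of these data known, and the difference between them was not tested here either.

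**Figure D3:**
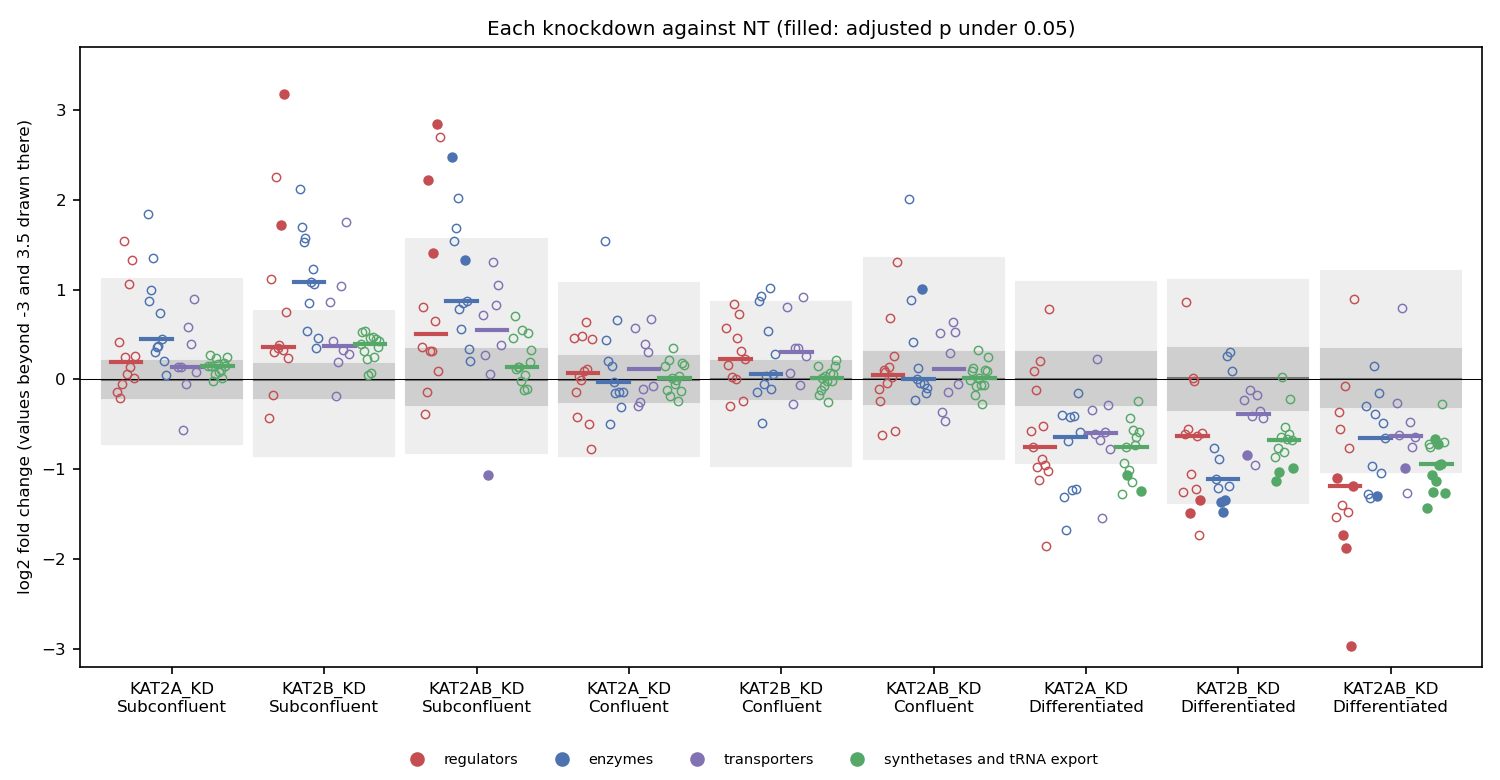
Log2 fold change of each knockdown against NT at each stage, 1 point per member by role (filled points, adjusted p under 0.05). Thick lines are role medians over the genes drawn, grey boxes the middle 50% and 90% of all genes tested, and genes with 3 or fewer reads in a group are left out. At Differentiated 41, 39 and 42 of the 45 members are fitted below 0 in KAT2A_KD, KAT2B_KD and KAT2AB_KD, counting CTH in KAT2A_KD, which is not drawn.

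A pair of Differentiated libraries stood apart. In KAT2A_KD replicate 1 was below replicate 2 for 37 of the 45 members (48.0% of all genes), by a median of 0.54 on the log2(CPM + 1) scale, and in KAT2AB_KD for 34 of 45 (50.5% of all genes), by 0.43. In both, all 13 of the synthetases with XPOT were lower in replicate 1. ASNS had 24 and 148 CPM in KAT2A_KD and 53.7 and 122 CPM in KAT2AB_KD, and PSAT1 30.4 and 139 CPM and 45.6 and 146 CPM. In NT and KAT2B_KD Differentiated the counts were 26 and 23 of 45. The gap also held for 10 of 13 genes from further amino acid stress and one-carbon metabolism in both KAT2A_KD (median 0.477) and KAT2AB_KD (0.626). Of the 11 other cytosolic synthetase genes 7 and 3 were lower in replicate 1, and of the 17 mitochondrial ones 8 and 12, in the same order. KAT2A had 3.03 and 4.94 CPM in KAT2A_KD Differentiated, KAT2A 1.98 and 6.85 CPM and KAT2B 5.85 and 18.9 CPM in KAT2AB_KD Differentiated, so the targeted genes were also lower in replicate 1. The part of these levels in the member differences was not tested.

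The number of calls against NT at Differentiated changed with the library left out. In KAT2A_KD it was 0 without its replicate 1, 11 without its replicate 2 and 0 without either NT library. In KAT2AB_KD it was 2 without its replicate 1, 19 without its replicate 2, 5 without NT replicate 1 and 2 without NT replicate 2. In KAT2B_KD it was 5, 2, 3 and 2 without its replicate 1, its replicate 2, NT replicate 1 and NT replicate 2. The direction of the median stayed below 0 in all 12 of these fits, from -0.51 to -0.99 in KAT2A_KD, from -0.59 to -0.84 in KAT2B_KD and from -0.64 to -1.23 in KAT2AB_KD. The calls that held in all 4 fits were MTHFD2 and TRIB3 in KAT2B_KD, with a highest adjusted p of 0.00653 and 0.0439, and JDP2 in KAT2AB_KD, with 0.0281.

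**Figure D4:**
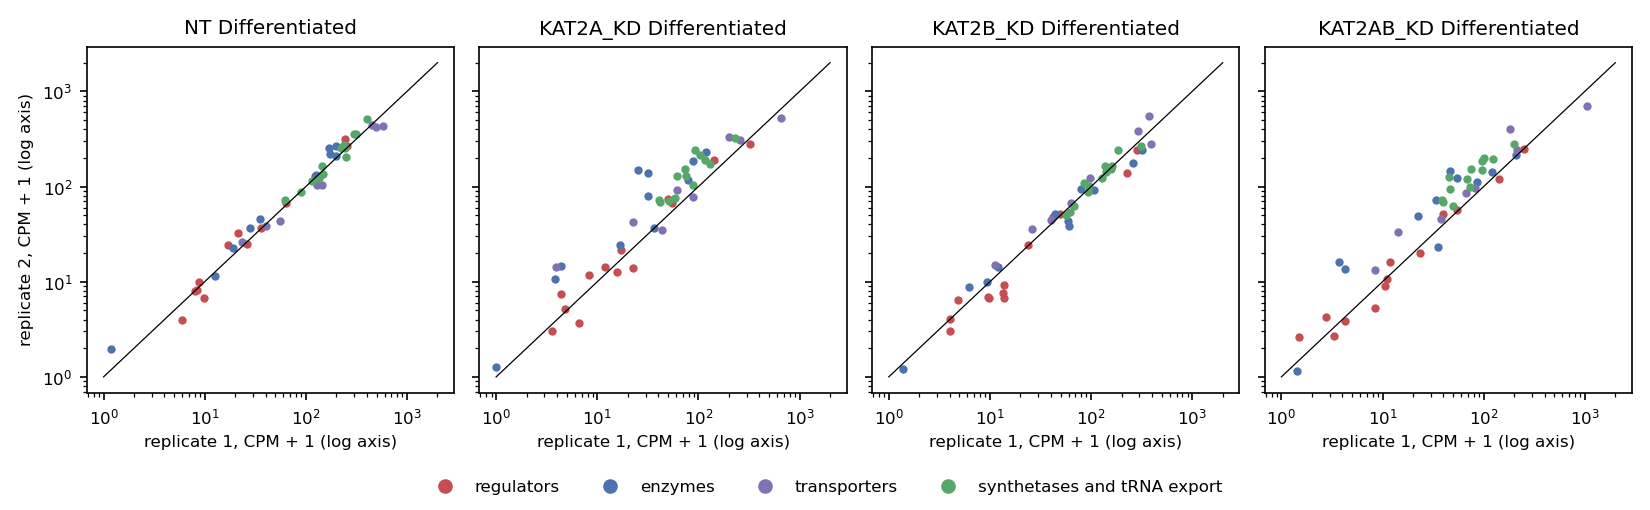
Level in replicate 2 against replicate 1 (CPM + 1, log axes) of the 45 genes in the 4 Differentiated groups, coloured by role, with the line of equality. In KAT2A_KD 37 and in KAT2AB_KD 34 of the 45 points lie above the line.

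KAT2A_KD and KAT2B_KD were also compared directly. At Subconfluent no member was called (edgeR, 0.533% of all genes, 8 members at an unadjusted p under 0.05 against 4.80%, and 0 from DESeq2), nor at Confluent (0.286% of all genes, 4 members unadjusted against 6.66%, and 0 from DESeq2). At Differentiated MTHFD2 was higher in KAT2A_KD, against 2.02% of all genes higher and 0.355% lower, with 77.2 and 116 CPM against 43 and 49.8 CPM (1.06 ± 0.192 SE, edgeR adjusted p = 0.00451). The call was lost in 2 of 4 fits that left out 1 library, with a highest adjusted p of 0.0847 without KAT2A_KD Differentiated replicate 2. JDP2 had 3.77 and 4.13 CPM in KAT2A_KD and 8.6 and 5.9 CPM in KAT2B_KD, without overlap but with an adjusted p of 0.144.

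Read across stages, the knockdown differences turned over. Members fitted above NT at Subconfluent and below NT at Differentiated numbered 36, 37 and 37 of 45 in KAT2A_KD, KAT2B_KD and KAT2AB_KD, against 22.3%, 20.4% and 23.1% of all genes tested. By role, in the same order, this held for 7, 10 and 10 of 13 regulators and 11, 8 and 10 of 11 enzymes. It held for 6, 7 and 7 of 8 transporters and 12, 12 and 10 of the 13 synthetases with XPOT. Within a genotype the 2 stages share no library. The 3 genotypes share the NT libraries of both stages, so their counts are not independent. The 45 include NUPR1, with 3 or fewer reads in each Subconfluent group. NT Differentiated was the highest of the 12 group means for 27 members, and KAT2AB_KD Differentiated was the lowest for 11 and NT Subconfluent for 9. The shares of all genes for these ranks were not computed. From Confluent to Differentiated in NT, 50.4% of all genes were called in either direction (edgeR adjusted p under 0.05). ASNS shows the range, from 15.6 and 21.4 CPM in NT Confluent to 170.2 and 254 CPM in NT Differentiated, with 67.1 and 57.3 CPM in KAT2B_KD Subconfluent between them.

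**Figure D5:**
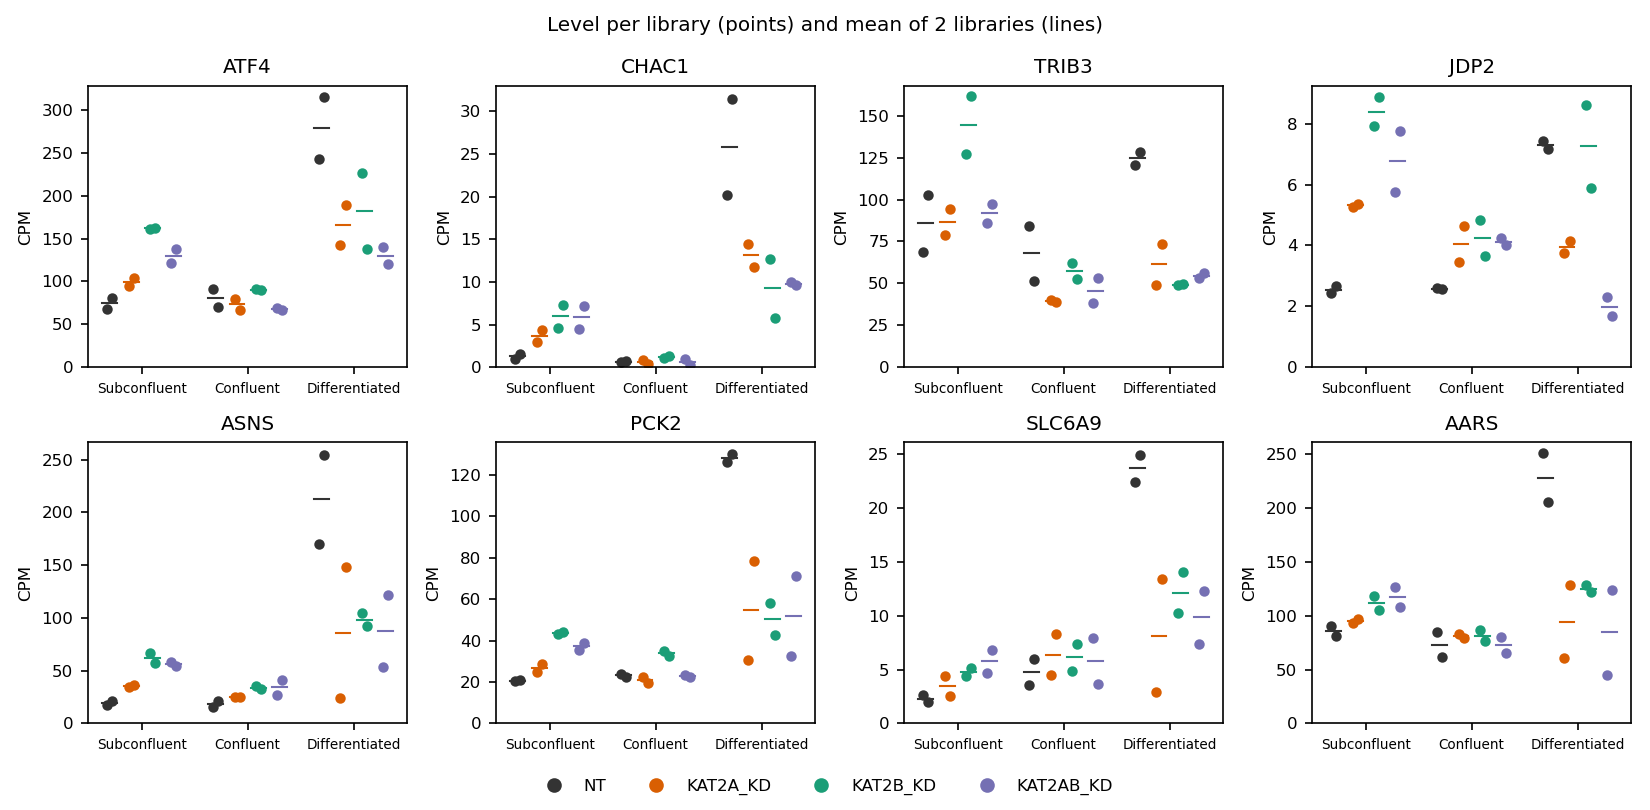
Level in CPM of 8 members in every library (points) with the mean of the 2 libraries (lines), by stage and genotype, with axes from 0. For ATF4, TRIB3 and AARS every knockdown library at Differentiated lies below both NT libraries.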

How the data were processed

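Poly(A)-selected RNA from the 24 libraries was sequenced single-end with a directional kit, per the labels' protocols. The authors deposited 1 table of raw counts per gene, and FastQC, Bowtie2, featureCounts, DESeq2 and hg19 are named, without versions, in the submitters' processing notes. The annotation, the strand setting and the handling of multi-mapping reads are not given in the sources used here. Of the count columns, 1 belonged to none of the samples and was not used.

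Counts were filtered with edgeR 4.0.16 (filterByExpr by group) in R 4.3.3, scaled by the trimmed mean of M-values and fitted in 1 quasi-likelihood model over 12 groups. All 23 comparisons were tested across 15757 genes, with Benjamini-Hochberg adjustment within each comparison and a threshold of 0.05. Standard errors were derived from the log2 fold change and its F statistic. SE is that standard error. Alternatives were DESeq2 1.42.0, other size factors, no filter, only the compared groups, a replicate block and each library left out. The fitting code was tested on simulated counts.

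Members and lists were chosen with earlier results of these data known. Every member was eligible to be named, each call is given with its value, and at most 3 genes of any other list were named per comparison, by lowest p. Counting intervals and floors (3 reads) cover counting error only.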

Additional observations from a re-analysis of the deposited data

Results flagged for a closer look

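For 5 genes the change from Confluent to Differentiated differed between a knockdown and NT by a test of the difference itself (edgeR). On the log2 scale MTHFD2 in KAT2B_KD differed by -1.51 ± 0.27 SE, edgeR adjusted p = 0.0181, with changes of -0.35 in KAT2B_KD and 1.16 in NT. In KAT2AB_KD, JDP2 differed by -2.55 ± 0.429 SE, edgeR adjusted p = 0.00373, with changes of -1.05 there and 1.50 in NT. STC2 differed by -3.23 ± 0.8 SE, edgeR adjusted p = 0.0497, with -0.19 and 3.04 in NT. YARS differed by -1.52 ± 0.335 SE, edgeR adjusted p = 0.0264, with -0.71 and 0.80 in NT, and LARS by -0.99 ± 0.235 SE, edgeR adjusted p = 0.0385, with -0.87 and 0.13 in NT. Of the 8 fits that left out 1 library, the call held in 4 for MTHFD2, 8 for JDP2, 1 for STC2, 2 for YARS and 1 for LARS. With only the compared groups fitted, none of the 5 passed, with adjusted p from 0.0563 for MTHFD2 and 0.0719 for JDP2 to 0.237 for LARS.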

How the results depend on the processing

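Calls of members lost under another setting were 1 of 150 with DESeq2, 7 of 150 without the low-count filter, 46 of 149 with only the compared groups in the fit, 4 of 150 with DESeq2's size factors in edgeR, and 222 of 620 with 1 library left out. The cause was not tested. In 1 case the sign turned: ASNS from Confluent to Differentiated in KAT2A_KD was -0.0445 (adjusted p = 0.947) without KAT2A_KD Differentiated replicate 2 and 2.57 without its replicate 1. Simulated counts were laid out as KAT2B_KD against NT at Subconfluent, with the same spread for all genes. There the test recovered 41 of 100 genes changed 2-fold and 97 of 100 changed 4-fold, with 9 false calls. Other comparisons were not simulated, and from Confluent to Differentiated changes under 2-fold were called, NARS in NT among them.

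DESeq2 called 2 members from Subconfluent to Confluent in KAT2A_KD, 7 in KAT2B_KD and 5 in KAT2AB_KD. Against NT it called 8 in KAT2B_KD and 10 in KAT2AB_KD at Subconfluent, 2 in KAT2B_KD at Confluent, and 14 each in KAT2A_KD and KAT2B_KD at Differentiated. It called 2, 4 and 7 differences from the NT change in KAT2A_KD, KAT2B_KD and KAT2AB_KD. Without the filter the Subconfluent to Confluent counts were 3, 11 and 5, in the same order. Those against NT were then 3, 11 and 15 at Subconfluent, 1, 3 and 3 at Confluent, and 15 in KAT2A_KD and 18 in KAT2B_KD at Differentiated. The count was 1 for KAT2A_KD against KAT2B_KD at Confluent, and 5, 7 and 16 for the differences from the NT change. With only the compared groups fitted, 15 were called from Confluent to Differentiated in KAT2AB_KD, and 1 in KAT2A_KD and 0 in KAT2AB_KD from Subconfluent to Confluent. Against NT there were 0 in KAT2B_KD at Subconfluent, 1 in KAT2B_KD and 2 in KAT2AB_KD at Confluent, and 3 in KAT2AB_KD at Differentiated. KAT2A_KD against KAT2B_KD at Differentiated gave 0, and the differences from the NT change 3 in KAT2B_KD and 0 in KAT2AB_KD.

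The replicate numbers 2 and 3 recur in every group. Deviations of same-numbered libraries correlated at -0.256 to 0.406 (median 0.118), over 0.1 in 37 of 66 pairs of groups. Whether the numbers mark pairing was not tested, and the main fit had no replicate block. With the replicate block, 4 members were called in KAT2A_KD against NT at Differentiated and 2 for the KAT2B_KD difference from the NT change, and 1 of 150 calls was lost.

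With each library left out in turn, the Confluent to Differentiated counts ran from 32 to 35 in NT, 17 to 21 in KAT2A_KD, 15 to 17 in KAT2B_KD and 18 to 25 in KAT2AB_KD. From Subconfluent to Confluent they ran from 0 to 0 in NT and KAT2A_KD, 1 to 3 in KAT2B_KD and 0 to 1 in KAT2AB_KD. Against NT they ran from 0 to 0 in KAT2A_KD and KAT2B_KD and 0 to 3 in KAT2AB_KD at Subconfluent, 0 to 0 in all 3 at Confluent, and 0 to 11, 2 to 5 and 2 to 19 at Differentiated. KAT2A_KD against KAT2B_KD gave 0 to 0, 0 to 0 and 0 to 3 at the 3 stages, and the differences from the NT change 0 to 9, 0 to 1 and 1 to 13.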
